A study of Homo sapiens with 6 samples.

Results

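The genes described here encode the syntaxins, the vesicle-associated membrane proteins (VAMPs), the SNAP proteins, the syntaxin-binding proteins, the synaptotagmins and the synaptotagmin-like proteins, the protein families that fuse transport vesicles with their target membranes and time that fusion. They were chosen by gene symbol: STX, STXBP, VAMP, SNAP, SYT or SYTL followed by a number, with an optional letter after an STX number. The rule used no measured value and found 56 genes among the 60835 gene names of the deposited tables. SNAP91 met the rule by its symbol but encodes a clathrin adaptor and not a SNARE.

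In membrane fusion a SNARE on the vesicle, usually a VAMP, zippers with a syntaxin and a SNAP25-family protein on the target membrane into a bundle of helices that pulls the membranes together. Munc18 proteins, such as STXBP2 and STXBP3, hold and guide syntaxins, and calcium-binding synaptotagmins couple fusion to a rise in calcium. NSF and its adaptors then take the spent bundle apart, and in nerve terminals dynamin 1 helps to retrieve the fused membrane by pinching off endocytic vesicles. In epithelial cells the same families sort cargo to the apical and basolateral surfaces, release granules and run traffic between the Golgi, endosomes, lysosomes and autophagosomes.

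RNA was sequenced from SW620, a human colon cancer cell line first grown from a lymph node metastasis. Of the 6 libraries, 3 came from SW620 cells labelled as having a DNM1 knockdown (shDNM1, genotype label DNM1 Knockdown, batch_B) and 3 came from SW620 cells with a control vector (shControl, genotype label WT, batch_A). The study asked which genes change in expression when DNM1, the gene of dynamin 1, is stably knocked down. All libraries came from 1 cell line in 1 medium, the sources used here name neither the hairpins nor their number, and no label says that replicates were separate cultures. P-values therefore reflect the library-to-library spread alone, and that spread may be technical. Batch and vector changed together in every library, so their effects cannot be told apart and no within-batch value exists for any result below.

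The libraries held 12844534 to 13537519 counts. Pairs of libraries of the same group correlated at 0.987 or more on the log2 CPM scale, and pairs from different groups at 0.977 or less. DNM1 itself had 126, 97.8 and 125 CPM (counts scaled to library size) in the libraries labelled shDNM1, against 127, 127 and 133 CPM in shControl, a log2 fold change of -0.15 (95% interval -0.32 to 0.03, adjusted p = 0.189 by edgeR's quasi-likelihood test). An exact two-sided permutation test gave p = 0.1, the smallest that 3 libraries against 3 allow. Without shDNM1 replicate 1 the edgeR value was -0.20 (adjusted p = 0.0399), the only 1 of 14 alternative fits in which DNM1 passed. Without shDNM1 replicate 2, its lowest library, the edgeR value was -0.037 (adjusted p = 0.718). DNM1 mRNA therefore gave no clear check of the knockdown labels, and every direction below is that of the libraries labelled shDNM1. Of 10 colon epithelial markers 7 could be tested. Of these, 4 were higher (KRT8, KRT18, KRT19 and CDX2), EPCAM was lower, and VIL1 and CDH17 did not pass. KRT20 and CEACAM5 had too few counts to be tested, and CDX1 was at 0 in every library. The summed TPM of the list was 11769 to 12616 in shDNM1 and 10439 to 11139 in shControl. KRT8, KRT18 and KRT19 supplied most of it. Their means were 7091, 2289 and 2078 TPM in shDNM1 and 6148, 1943 and 1744 TPM in shControl.

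Of the 56 genes, 42 had enough counts to be tested and 14 did not. Every adjusted p below comes from edgeR's quasi-likelihood test with Benjamini-Hochberg adjustment over all 16744 genes tested, and a gene is said to have risen or fallen only where it is under 0.05. Among the 42, 18 changed, which is 42.9%, against 31.9% of all genes tested. The 12 that rose made up 28.6% of the 42, against 15.6% of all genes, and the 6 that fell made up 14.3%, against 16.2% of all genes. The genes were chosen by symbol but with earlier results of these data known, so these shares are descriptive and were not tested. With libraries scaled by their size alone 10 rose (23.8%, against 13.5% of all genes) and 8 fell (19.0%, against 18.5% of all genes). The larger share of rises was not found by limma-trend on log2(TPM + 1), where 4 of the 42 rose (9.52%, against 10.8% of all genes), and was smaller on log2(TPM + 0.1), where 6 rose (14.3%, against 10.7% of all genes). The median log2 fold change was 0.05 over the 42 genes and -0.01 over all genes tested. In the fits on TPM the median over all genes was lower, at -0.067 on log2(TPM + 1) and -0.075 on log2(TPM + 0.1).

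**Figure D1:**
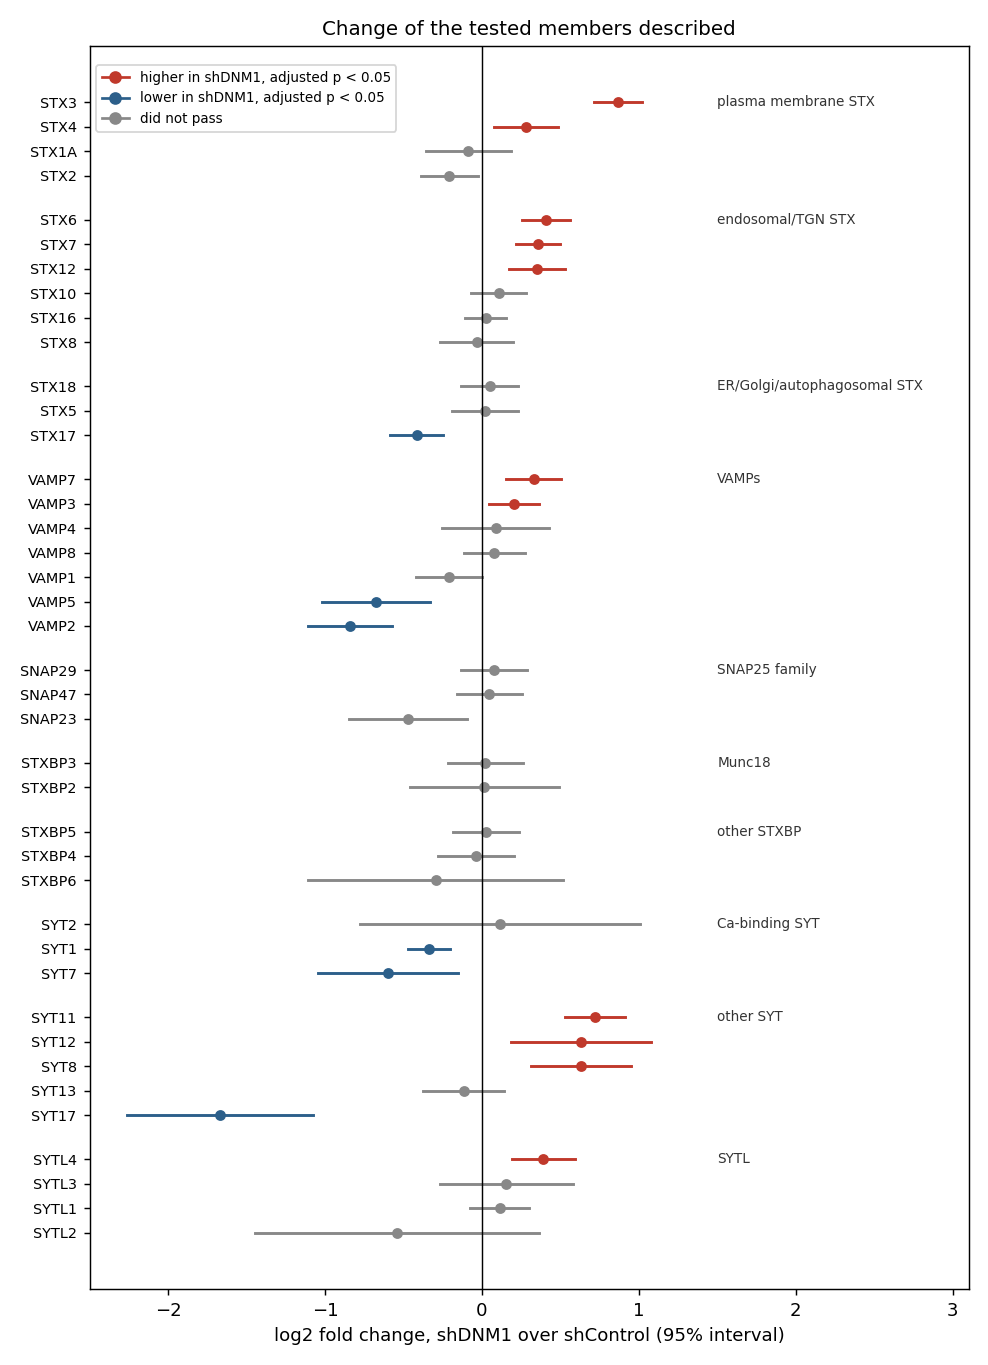
Log2 fold change of 40 tested genes, shDNM1 over shControl, with 95% intervals, ordered within each role. Red points rose, blue points fell and grey points did not pass an adjusted p of 0.05. The intervals run from SYT17 at the far left (-2.26 to -1.07) to STX3 among the highest (0.72 to 1.02).

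Changes of at least 1.5-fold that also passed the test were found for 8 of the 42 genes, or 19.0%, against 11.7% of all genes tested. STX3, SYT11, SYT8 and SYT12 rose by that much (4 genes, against 4.65% of all genes), and VAMP2, VAMP5, SYT7 and SYT17 fell by it (4 genes, against 7.08% of all genes). In 20 of the 42 genes (47.6%, against 44.3% of all genes) no library of one group lay within the range of the other, with shDNM1 above in 12 (against 21.2% of all genes) and below in 8 (against 23.1%). The summed TPM of all 56 genes was 1337, 1286 and 1339 in shDNM1, against 1294, 1299 and 1296 in shControl, ranges that overlapped. Their summed CPM was 1531, 1519 and 1543 in shDNM1, against 1385, 1406 and 1388 in shControl, ranges that did not overlap. Such a sum follows the genes with most counts and does not mean that the genes rose together. The plasma membrane syntaxins summed to 255, 286 and 276 CPM in shDNM1, against 186, 191 and 183 CPM in shControl. The calcium-binding synaptotagmins went the other way, with 117, 119 and 117 CPM in shDNM1, against 146, 159 and 143 CPM in shControl. TPM, the authors' length-adjusted value, divides by gene length and so compares levels between genes, whereas CPM compares 1 gene between libraries.

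The plasma membrane syntaxins are the target SNAREs of secretion. STX3, the apical syntaxin of polarised epithelial cells, had 165, 198 and 189 CPM in shDNM1, against 98.3, 105 and 99.3 CPM in shControl. All 3 libraries labelled shDNM1 stood well above all 3 shControl libraries. Its log2 fold change was 0.87 (SE 0.0725), or 1.83-fold, with an adjusted p of 6.27e-08, and it passed in all 14 alternative fits.

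STX4, the basolateral syntaxin that also serves insulin-stimulated GLUT4 delivery in fat and muscle, had 28.4, 32.6 and 33.7 CPM in shDNM1, against 26.7, 27.4 and 23.9 CPM in shControl. The groups did not overlap, but the gap between them was about 1 CPM wide at its narrowest. The 1.21-fold rise (log2 0.28, SE 0.0966, adjusted p = 0.0338) passed in 6 of 14 alternative fits, and it was lost without shDNM1 replicate 2 (adjusted p = 0.0858), shDNM1 replicate 3 (0.135), shControl replicate 1 (0.0647) or shControl replicate 3 (0.183).

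STX1A, a syntaxin of nerve terminals, did not pass, with 15.8, 13 and 12.1 CPM in shDNM1, against 14.3, 15 and 14.2 CPM in shControl (95% interval of the log2 fold change -0.36 to 0.18).

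STX2, also called epimorphin, had 37, 31.9 and 32.8 CPM in shDNM1, against 41.4, 37.9 and 38.2 CPM in shControl. Its groups did not overlap, with shDNM1 lower, yet it missed the threshold (log2 -0.21, adjusted p = 0.0735). Added up per library, the plasma membrane syntaxins had 194.5, 199.4 and 204.4 TPM in shDNM1, against 163.3, 161.1 and 154.7 TPM in shControl. STX3 made up 43.8% ± 2.30 of that sum in shDNM1 and 31.3% ± 0.91 in shControl, and STX2 14.3% ± 1.79 in shDNM1 and 21.4% ± 1.07 in shControl (SD, n = 3 each). STX3 was thus the leading plasma membrane syntaxin in shDNM1, at 87.4 ± 6.28 TPM, whereas in shControl it stood level with STX4, each at a mean of 49.9 TPM.

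**Figure D2:**
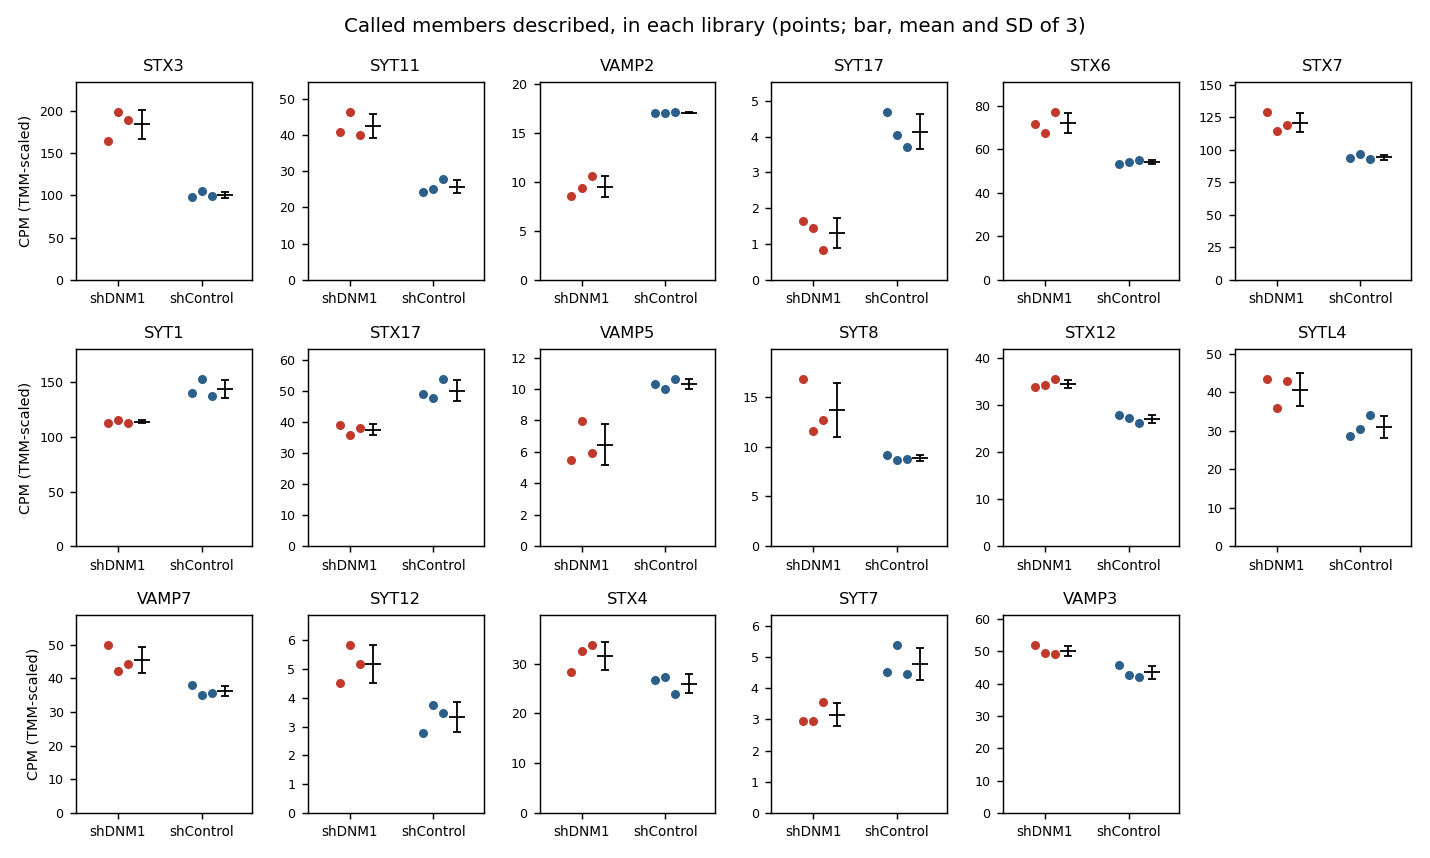
CPM of 17 genes that passed the test, each on its own axis, with shDNM1 libraries left of shControl libraries and bars for the mean and SD of 3 libraries. STX3 lies between 165 and 198 in shDNM1 and between 98.3 and 105 in shControl, and SYT17 between 0.836 and 1.63 in shDNM1 and between 3.70 and 4.68 in shControl.

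Of the endosomal and trans-Golgi syntaxins, 3 of 6 rose and none fell, against 15.6% and 16.2% of all genes tested. Each rise was by less than 1.5-fold. STX6, which acts in traffic between the trans-Golgi network and endosomes, had 71.5, 67.6 and 76.9 CPM in shDNM1, against 53.3, 54.3 and 55 CPM in shControl (1.33-fold, log2 0.41, SE 0.0727, adjusted p = 0.000279). STX7, a syntaxin of late endosomes and lysosomes, had 129, 114 and 119 CPM in shDNM1, against 93.4, 96.3 and 92.8 CPM in shControl (1.28-fold, log2 0.36, SE 0.0663, adjusted p = 0.000444). In both genes every shDNM1 library was above every shControl library.

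STX12, also called syntaxin 13 and placed on recycling endosomes, had 33.8, 34.1 and 35.5 CPM in shDNM1, against 27.8, 27.3 and 26.1 CPM in shControl. It rose 1.27-fold (log2 0.35, SE 0.0848, adjusted p = 0.00394), again with no overlap between the groups. STX10, of the trans-Golgi network, had 47.1, 53.8 and 52.4 CPM in shDNM1, against 43.3, 51.1 and 47.9 CPM in shControl, overlapping ranges, and did not pass (log2 0.11, adjusted p = 0.361). Its 115 ± 5.72 TPM in shDNM1 and 111 ± 7.70 TPM in shControl were the highest of any syntaxin. The other members of this class did not pass either, STX16 at 83.5 ± 5.11 TPM in shDNM1 and 85.5 ± 4.23 TPM in shControl, and STX8 at 56.0 ± 2.05 TPM in shDNM1 and 59.6 ± 1.74 TPM in shControl (SD, n = 3 each). The rise of STX7 was lost only on log2(TPM + 1), at an adjusted p of 0.0515, while STX6 and STX12 passed in all 14 alternative fits.

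STX17, the syntaxin that autophagosomes take up before they fuse with lysosomes, was the only syntaxin that fell. It had 39, 35.8 and 38.2 CPM in shDNM1, against 49, 47.7 and 54 CPM in shControl. The groups were far apart relative to their spread, and the level in shDNM1 was 75.0% of that in shControl (log2 -0.42, SE 0.0803, adjusted p = 0.000625, passed in all 14 alternative fits). STX5, of the Golgi, and STX18, of the endoplasmic reticulum, did not pass, with log2 intervals of -0.19 to 0.23 for STX5 and -0.13 to 0.23 for STX18.

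The VAMPs, the vesicle-side SNAREs, changed in both directions. VAMP2, or synaptobrevin 2, the vesicle SNARE of synaptic and many regulated secretory vesicles, had 8.54, 9.41 and 10.6 CPM in shDNM1, against 17, 17.1 and 17.1 CPM in shControl. Even the highest shDNM1 library was well below the lowest shControl library. VAMP2 fell to 55.9% of the shControl level (log2 -0.84, SE 0.128, adjusted p = 6.1e-05) and passed in all 14 alternative fits.

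VAMP5, also called myobrevin and first described in muscle, had 5.51, 7.97 and 5.93 CPM in shDNM1, against 10.3, 10 and 10.6 CPM in shControl. It fell to 62.6% of the shControl level (log2 -0.68, SE 0.163, adjusted p = 0.00376, passed in all 14 alternative fits), with shDNM1 replicate 2 nearest to shControl. VAMP7, a vesicle SNARE of lysosome exocytosis and apical delivery, rose 1.26-fold, with 49.8, 42.3 and 44.2 CPM in shDNM1, against 37.9, 35.1 and 35.5 CPM in shControl (log2 0.33, SE 0.0843, adjusted p = 0.00579). VAMP7 lies in a pseudoautosomal region present on X and Y, and its rise was lost in both fits on TPM (adjusted p = 0.0572 and 0.0578).

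VAMP3, or cellubrevin, of recycling endosomes, had 51.8, 49.3 and 49 CPM in shDNM1, against 45.6, 42.8 and 41.9 CPM in shControl. The groups did not overlap, but the 1.15-fold rise (log2 0.20, SE 0.0754) lay close to the threshold at an adjusted p of 0.0464. It passed in 3 of 14 alternative fits, and leaving out any 1 of the 6 libraries ended it, with adjusted p between 0.0559 and 0.197. VAMP8, or endobrevin, of endosomes, lysosomes and exocrine granules, had the highest TPM of all 56 genes, 146 ± 8.89 in shDNM1 and 144 ± 14.3 in shControl (SD, n = 3 each), and did not pass (log2 interval -0.12 to 0.27). Its CPM were 39.4, 44.1 and 37.2 in shDNM1, against 34.8, 37 and 42.4 in shControl, with the groups mixed. VAMP1 (26.8, 21.9 and 27 CPM in shDNM1, against 29.1, 30.5 and 27.9 CPM in shControl, adjusted p = 0.125) and VAMP4 (adjusted p = 0.722) did not pass either.

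Within the summed TPM of the VAMPs, VAMP2 made up 3.91% ± 0.54 in shDNM1 and 6.91% ± 0.22 in shControl. VAMP5 made up 8.50% ± 1.48 in shDNM1 and 13.5% ± 0.22 in shControl, and VAMP8 43.4% ± 2.26 in shDNM1 and 40.6% ± 2.87 in shControl (SD, n = 3 each). The sum itself was 344.8, 336.7 and 328.5 TPM in shDNM1, against 353, 342.2 and 367.9 TPM in shControl, ranges that overlapped. The VAMP pool thus kept VAMP8 as its largest component in every library while its VAMP2 and VAMP5 shares were smaller in shDNM1.

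**Figure D3:**
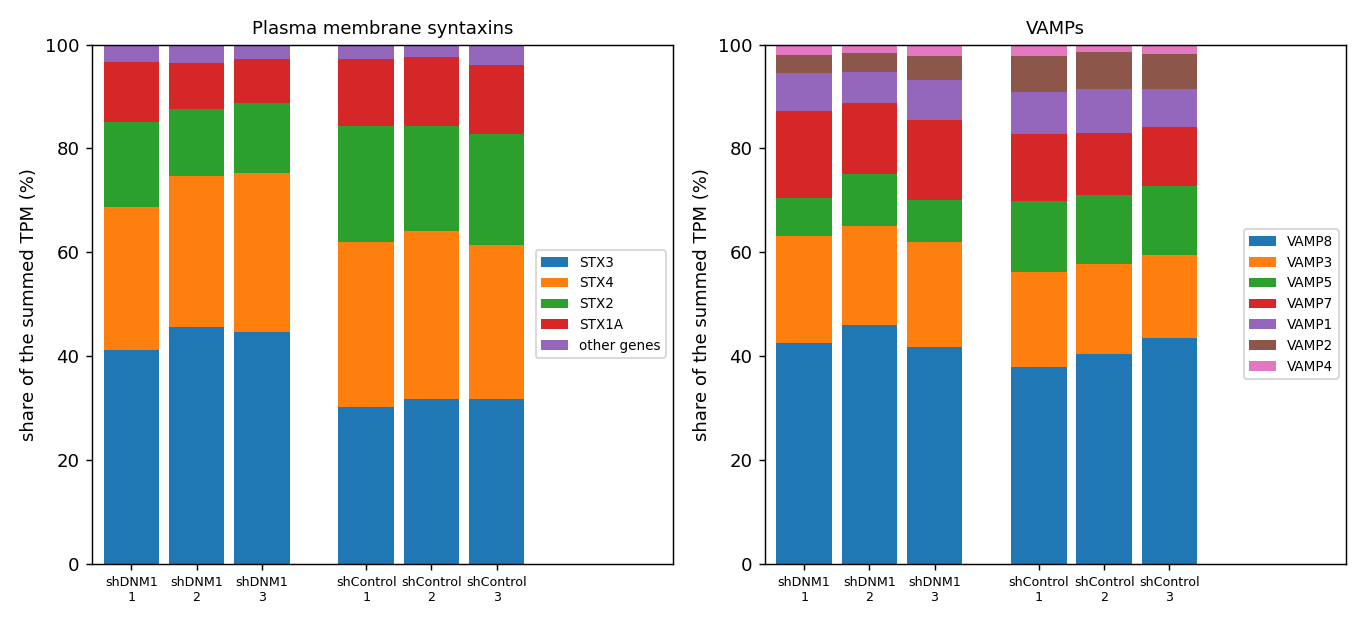
Share (%) of each gene in the summed TPM of its class, for the plasma membrane syntaxins and the VAMPs, as 1 stacked bar per library, with shDNM1 left of shControl. The STX3 share is larger in every shDNM1 library, and the VAMP2 share is smaller.

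VAMP5 and VAMP8 are neighbours on chromosome 2 (GRCh38), VAMP8 at 85561562-85582031 and VAMP5 at 85584431-85593406, both on the plus strand and 2400 bases apart. VAMP5 fell and VAMP8 did not pass, so the promoter stretches of this pair are shown beside those of VAMP2, which fell, and VAMP3, which rose. Each is the part of the RefSeq promoter window (GRCh38.p14) upstream of the first GENCODE release 29 exon within that window, on the gene's own strand, with GC boxes (GGGCGG, or CCGCCC on the other strand, overlapping matches counted) in capitals: VAMP2 at chr17:8162976-8163198 on the minus strand, VAMP5 at chr2:85584181-85584407, VAMP3 at chr1:7771046-7771268 and VAMP8 at chr2:85577336-85577490, the last 3 on the plus strand. The stretches of VAMP2 and VAMP8 lie upstream of a later RefSeq start and inside the deposited gene span, in an intron of a longer transcript, whereas those of VAMP5 and VAMP3 lie before the gene.
VAMP2: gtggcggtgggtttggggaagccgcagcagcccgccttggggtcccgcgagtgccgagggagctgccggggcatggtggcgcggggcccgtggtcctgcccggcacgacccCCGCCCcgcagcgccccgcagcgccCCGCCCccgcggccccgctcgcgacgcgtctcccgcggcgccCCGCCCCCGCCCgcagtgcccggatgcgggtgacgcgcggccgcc
VAMP5: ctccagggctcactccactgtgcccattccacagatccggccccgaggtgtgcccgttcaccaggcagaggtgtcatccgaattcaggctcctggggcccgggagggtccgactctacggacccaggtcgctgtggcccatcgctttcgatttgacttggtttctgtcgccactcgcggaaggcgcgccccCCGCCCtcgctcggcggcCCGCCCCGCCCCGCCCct
VAMP3: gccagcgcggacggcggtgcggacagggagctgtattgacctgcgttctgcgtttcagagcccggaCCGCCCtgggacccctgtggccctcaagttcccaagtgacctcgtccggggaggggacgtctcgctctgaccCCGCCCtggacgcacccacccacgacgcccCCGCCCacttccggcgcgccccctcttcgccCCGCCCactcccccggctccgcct
VAMP8: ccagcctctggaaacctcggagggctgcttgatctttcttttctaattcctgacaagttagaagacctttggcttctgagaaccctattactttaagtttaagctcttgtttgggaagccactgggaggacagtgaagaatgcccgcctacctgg

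The printed stretches of VAMP2, VAMP5 and VAMP3 held 4 GC boxes each, although VAMP2 and VAMP5 fell and VAMP3 rose, and that of VAMP8 held 0. The VAMP8 window as a whole held 1 GC box. Of all 35116 RefSeq promoter windows of 250 bases, 42.6% held at least 1 GC box, as did 66.2% of the 71 windows that belong to 45 of the 56 genes. Member windows also held more CpG dinucleotides, with a median of 21 per window, against 11 over all windows. The E-box CACGTG was in 6.34% of all windows, in 12.7% of the 71 member windows and in none of these VAMP windows. These matches are letters in a window and say nothing of factor binding.

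Of the SNAP25-family SNAREs, which give helices to the target side of the bundle, none passed. SNAP25, the neuronal member, had 1 count in 1 shControl library and 0 in the other 5. SNAP23, its form outside neurons, had 5.44, 7.01 and 6.23 CPM in shDNM1, against 6.82, 9.06 and 10 CPM in shControl. The ranges overlapped through shDNM1 replicate 2 and shControl replicate 1, and the adjusted p of 0.0514 (log2 -0.47, SE 0.178) was just over the threshold. It went under the threshold in 5 of 14 alternative fits, among them without shDNM1 replicate 2 (0.0362) and without shControl replicate 1 (0.0223). SNAP29, which pairs with STX17 on autophagosomes, had 18.2 ± 1.34 TPM in shDNM1 and 18.0 ± 1.13 TPM in shControl (SD, n = 3 each) and did not pass. SNAP47, the most abundant of the family, had 29, 34.3 and 35.9 CPM in shDNM1, against 33, 33.8 and 29.1 CPM in shControl, which overlapped.

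STXBP2, STXBP3, STXBP4, STXBP5 and STXBP6, the syntaxin-binding proteins described here, did not pass, and their log2 fold changes ran from -0.29 (STXBP6) to 0.03 (STXBP5). STXBP3, or Munc18-3, the partner of STX4, had 44.6, 36.7 and 32.2 CPM in shDNM1, against 40.5, 31.7 and 39.8 CPM in shControl, with the groups fully overlapping. STXBP2, the Munc18 of epithelia and granulocytes that binds STX3 and STX11, was at 3.62 ± 0.316 TPM in shDNM1 and 3.73 ± 0.643 TPM in shControl (SD, n = 3 each). The 95% intervals of the log2 fold change were -0.22 to 0.26 for STXBP3 and -0.46 to 0.49 for STXBP2. Changes of either gene within its interval remain compatible with the data.

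Among the calcium-binding synaptotagmins, SYT1 held nearly all of the RNA. SYT1, the calcium sensor of fast transmitter release in neurons, had 113, 115 and 113 CPM in shDNM1, against 140, 153 and 138 CPM in shControl. The shDNM1 libraries lay close together and all below shControl. SYT1 fell to 79.2% of the shControl level (log2 -0.34, SE 0.0642, adjusted p = 0.000549, passed in all 14 alternative fits), and it made up 97.0% of the summed TPM of its class in shDNM1 and 96.7% in shControl.

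SYT7, a high-affinity calcium sensor of lysosome exocytosis and slow secretion, had 2.95, 2.95 and 3.57 CPM in shDNM1, against 4.52, 5.38 and 4.47 CPM in shControl. The groups did not overlap, and SYT7 fell to 66.0% (log2 -0.60, SE 0.211, adjusted p = 0.0374). It passed in 5 of 14 alternative fits, with adjusted p from 0.0293 to 0.144, and was lost without shDNM1 replicate 1 (0.0762), shDNM1 replicate 2 (0.0817) or shControl replicate 1 (0.0712), 2 (0.144) or 3 (0.0657). SYT2 was near the floor, at 0.928 ± 0.40 CPM in shDNM1 and 0.859 ± 0.121 CPM in shControl (SD, n = 3 each), where 3 counts amount to 0.221 to 0.239 CPM. SYT3, SYT5, SYT9 and SYT10 had at most 1 count in any library, and SYT6 had 0.

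Added up, the synaptotagmins with weak or no calcium binding had 51.8, 48.0 and 49.5 TPM in shDNM1, against 37.8, 40.6 and 40.3 TPM in shControl. SYT11, an endocytic and lysosomal synaptotagmin linked to Parkinson's disease, had 40.9, 46.2 and 40.1 CPM in shDNM1, against 24.3, 25.2 and 27.8 CPM in shControl. Every shDNM1 library was far above every shControl library. SYT11 rose 1.64-fold (log2 0.72, SE 0.0907, adjusted p = 8.77e-06, passed in all 14 alternative fits) and supplied 48.2% ± 3.79 of this class's TPM in shDNM1 and 38.3% ± 2.30 in shControl (SD, n = 3 each).

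SYT8 had 16.8, 11.6 and 12.7 CPM in shDNM1, against 9.20, 8.62 and 8.71 CPM in shControl. Replicate 1 of shDNM1 was the highest, and the groups did not overlap. SYT8 rose 1.55-fold (log2 0.63, SE 0.152, adjusted p = 0.00378), a call lost only on log2(TPM + 1) at an adjusted p of 0.0522.

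SYT12, or synaptotagmin-related gene 1, had 4.50, 5.82 and 5.17 CPM in shDNM1, against 2.76, 3.76 and 3.47 CPM in shControl. All shDNM1 libraries were above shControl, by little in the closest pair. Its 1.55-fold rise (log2 0.63, SE 0.211, adjusted p = 0.0293) passed in 7 of 14 alternative fits and was lost without shDNM1 replicate 2 (0.0919), shDNM1 replicate 3 (0.0647), shControl replicate 1 (0.123) or shControl replicate 3 (0.0693).

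SYT17, also called B/K protein and found in brain and kidney in rodents, had the largest fall of the 42 tested genes. It had 1.63, 1.43 and 0.836 CPM in shDNM1, against 4.68, 4.05 and 3.70 CPM in shControl. Even the lowest shControl library was above the highest shDNM1 library, although the gene is rare, at 0.748 ± 0.241 TPM in shDNM1 and 2.48 ± 0.322 TPM in shControl (SD, n = 3 each). It fell to 31.5% of the shControl level (log2 -1.67, SE 0.282, adjusted p = 0.000177) and passed in all 14 alternative fits. SYT13 did not pass (95% interval of the log2 fold change -0.37 to 0.14), and SYT4 and SYT14 were at 0 in all 6 libraries.

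**Figure D4:**
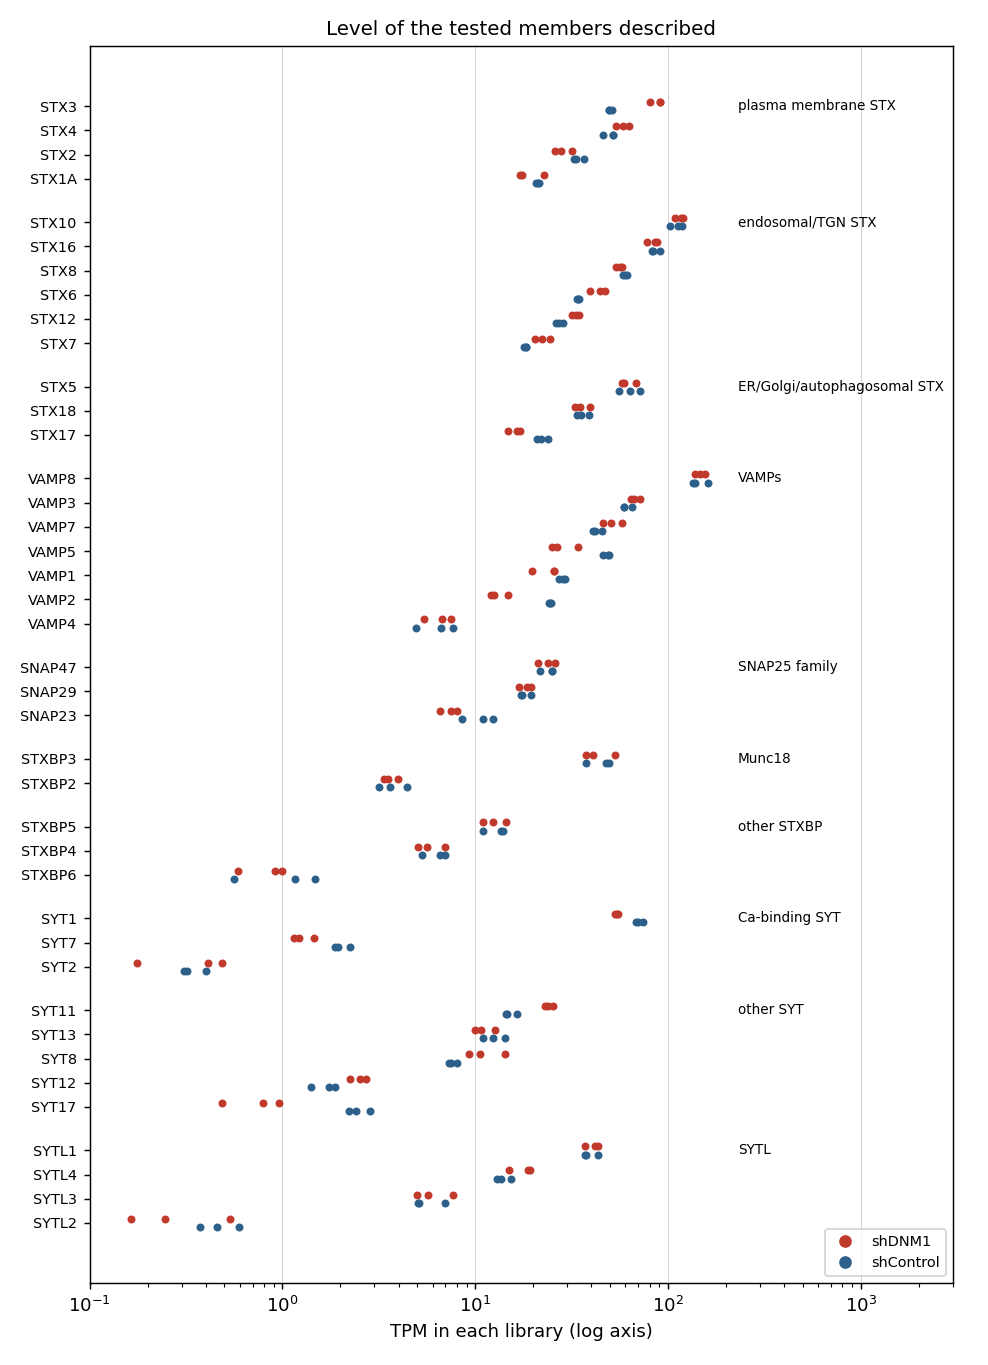
TPM of 40 tested genes in each library, on a log axis, with shDNM1 points above shControl points in each row, ordered by level within each role. VAMP8 (means of 146 in shDNM1 and 144 in shControl) is the highest, and the points of STX3, VAMP2, SYT11 and SYT17 form separate groups.

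The synaptotagmin-like proteins tether RAB27-bearing granules to the plasma membrane. SYTL4, or granuphilin, known from insulin granules, had 43.4, 35.8 and 42.8 CPM in shDNM1, against 28.5, 30.5 and 34.1 CPM in shControl. The groups did not overlap, with shDNM1 replicate 2 and shControl replicate 3 the closest pair. It rose 1.31-fold (log2 0.39, SE 0.0961, adjusted p = 0.00435), a call lost in both fits on TPM (0.0988 and 0.0945). SYTL1, the most abundant of the class, had 37.4, 35.3 and 39.4 CPM in shDNM1, against 32.2, 38.6 and 32.9 CPM in shControl. Its groups overlapped, and SYTL1, SYTL2 and SYTL3 did not pass.

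The 14 genes that were not tested had at most 10 counts in any library. STX11, a syntaxin of cytotoxic granules, had 0, 10 and 7 counts in shDNM1, against 2, 2 and 9 in shControl. STX19 had 3, 8 and 6 counts in shDNM1, against 4, 2 and 9 in shControl, and SYT15 had 1, 1 and 6 counts in shDNM1, against 2, 4 and 1 in shControl. SYTL5 and SYT16 had at most 5 counts, and SNAP91, SYT4, SYT6 and SYT14 had none.

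Partners that are known to assemble together were then compared. In the autophagosome complex of STX17, SNAP29 and VAMP8, STX17 fell while SNAP29 (log2 interval -0.14 to 0.29) and VAMP8 (-0.12 to 0.27) did not pass. In the late endosomal complex of STX7, STX8, VTI1B and VAMP8, STX7 rose and the others did not pass. For STX3, its usual partner SNAP23 did not pass and was lower in value, VAMP7 rose and STXBP2 did not pass. Differences between the changes of partners were not tested.

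Other parts of the fusion machinery, 58 further genes from a list of SNAREs without these symbols, NSF and its adaptors, Sec1/Munc18 proteins, the exocyst and priming factors, were read for comparison. Of 47 tested, 5 rose (10.6%) and 8 fell (17.02%), against 15.6% and 16.2% of all genes. UNC13D, or Munc13-4, which primes lysosome-related granules, had 89.6, 87.8 and 88.7 CPM in shDNM1, against 44.5, 46.5 and 42.6 CPM in shControl, a 1.99-fold rise (log2 0.99, SE 0.0697, adjusted p = 8.01e-09). NAPG, or gamma-SNAP, an adaptor of NSF, had 189, 165 and 164 CPM in shDNM1, against 91.3, 88.8 and 96.9 CPM in shControl, a 1.87-fold rise (log2 0.90, SE 0.0707, adjusted p = 2.83e-08). Both genes were far from overlap between the groups. CADPS2, a priming factor of dense-core vesicles, had 44.1, 48.6 and 48.7 CPM in shDNM1, against 85.5, 85.1 and 81 CPM in shControl and fell to 56.2% (log2 -0.83, SE 0.072, adjusted p = 9.8e-08).

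Of 17 tested priming and fusion regulators 2 rose and 7 fell, against 15.6% and 16.2% of all genes tested. DOC2B, a calcium sensor, rose 1.48-fold (adjusted p = 0.00034), and SNAPIN, which binds SNAP25 and SNAP23, fell to 72.7% (adjusted p = 0.0016). RAB27A, the small GTPase that synaptotagmin-like proteins bind, fell to 72.6% of the shControl level, with 10.6, 10.4 and 11.3 CPM in shDNM1, against 14.8, 14.1 and 15.8 CPM in shControl (adjusted p = 0.00825). RPH3AL fell to 81.0%, ESYT3 to 67.6%, MYRIP to 34.8% and UNC13B to 84.0%. MYRIP, near the floor, was lost without shControl replicate 1 (adjusted p = 0.0724), and UNC13B passed in 4 of 14 alternative fits and was lost without shDNM1 replicate 1 (0.107), shDNM1 replicate 2 (0.161), or shControl replicate 1 (0.064), 2 (0.142) or 3 (0.131).

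Among the other SNAREs, 1 of 12 fell and none rose, against 16.2% and 15.6% of all genes tested. That gene, SEC22B, of traffic between the endoplasmic reticulum and the Golgi, had 61, 49 and 43.9 CPM in shDNM1, against 71.8, 69.6 and 71 CPM in shControl (72.5%, adjusted p = 0.00101), and near-identical copies in the genome make its count uncertain. Of the 9 exocyst subunits EXOC3 rose to 120% of the shControl level (adjusted p = 0.00442) and 8 did not pass. VPS33A, a Sec1/Munc18 protein of lysosomes, rose 1.24-fold (adjusted p = 0.0451). It passed in 4 of 14 alternative fits and was lost without shDNM1 replicate 2 (0.168), shDNM1 replicate 3 (0.0688), or shControl replicate 1 (0.0836), 2 (0.19) or 3 (0.0507).

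Several of the genes were markers of neurons or endocrine cells elsewhere, so the list of neuroendocrine markers was read beside them. Of 12 such markers 4 could be tested: SCG2 and ENO2 were higher, CHGB was lower and SYP did not pass, while NEUROD1 was at 0 in every library and INSM1 had 1 count in 1 shControl library. Their summed TPM was 164.5 to 182.2 in shDNM1 and 134.9 to 153.3 in shControl. ENO2 alone supplied most of it, 146.7 to 163.2 TPM in shDNM1 and 122.7 to 139.6 TPM in shControl. The part of the difference between these sums in the changes of SYT1 and VAMP2 was not tested. Of the 6 fibroblast markers 3 were tested: LUM and PDGFRB were higher and COL1A1 did not pass. COL3A1 was at 0, and COL1A2 and DCN had at most 1 count in any library. The fibroblast list summed to 36.2 to 54.3 TPM in shDNM1 and 28.6 to 36.1 TPM in shControl. LUM alone supplied most of that sum, with 46.1, 28.7 and 31.0 TPM in shDNM1, against 28.9, 23.1 and 27.2 TPM in shControl. The leukocyte list (LYZ lower, CD3E at 0) summed to 3.48 to 4.77 TPM in shDNM1 and 8.18 to 9.85 TPM in shControl.

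Genes that lie near the members were also read. Of the 190 different tested genes within 100 kb of a tested member 36 were higher (18.9%, against 15.6% of all genes) and 25 were lower (13.2%, against 16.2%). The neighbourhoods of SYT17 and SYT8 are described because of their values, which were seen first, and are no result about the members in general. SYT17, at 19167971-19268332 on chromosome 16, had 2 tested neighbours within 100 kb and both fell, ITPRIPL2 to 70.2% (adjusted p = 0.000177) and COQ7 to 72.2% (adjusted p = 0.00231).

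SYT8, at 1828307-1837521 on chromosome 11, had 5 tested neighbours within 100 kb, of which 3 rose, against 15.6% of all genes tested. LSP1, 13383 bases away, had 17.01, 20.7 and 14.7 CPM in shDNM1, against 2.76, 2.73 and 3.70 CPM in shControl, a 5.69-fold rise (adjusted p = 1.03e-08). PRR33 rose 3.89-fold and CTSD, the lysosomal protease cathepsin D, rose 2.11-fold. TNNI2 (adjusted p = 0.136) and AC068580.2 (0.343) did not pass.

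In GENCODE release 29, exons of 25 of the 56 genes shared bases with exons of another gene, among them 8 of the 18 that changed: STX3, STX6, STX17, VAMP2, SYT1, SYT7, SYT17 and SYTL4. The share of exon bases concerned was 17.5% for SYTL4, with SRPX2 on the opposite strand, and 13.2% for VAMP2, with AC129492.3 on the same strand. No source used here says whether counting used strand, so reads of these genes and of their partners cannot be told apart in the shared bases.

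**Figure D5:**
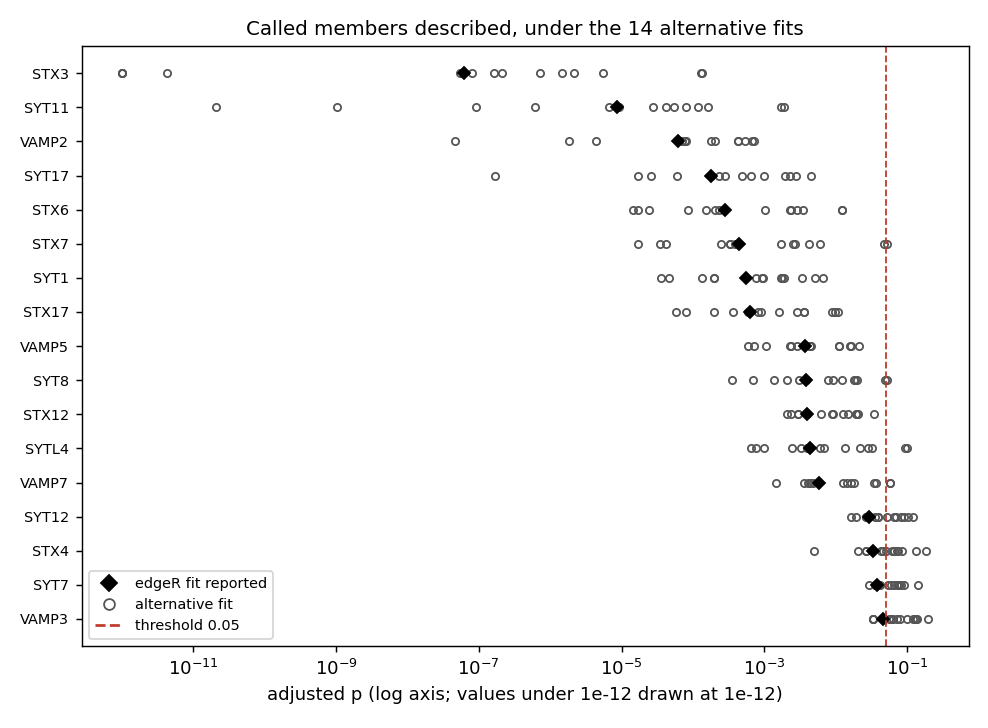
Adjusted p (log axis, values under 1e-12 drawn at 1e-12) of 17 genes that changed, in the fit reported (diamonds) and in 14 alternative fits (circles), with the threshold of 0.05 as a dashed line. All circles of STX3, SYT11, VAMP2, SYT17, STX6, SYT1, STX17, VAMP5 and STX12 lie left of the line, whereas those of VAMP3, SYT7, STX4 and SYT12 fall on both sides of it.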

How the data were processed

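RNA of 3 shDNM1 and 3 shControl SW620 libraries, grouped by their titles, was analysed. The authors deposited a table of raw read counts for each gene and library. The submitters' processing notes name build GRCh38. No source used here names the aligner, the counter, the annotation release or the use of strand. Per the labels' protocols a SMARTER mRNA-seq kit was used. The authors' deposited TPM table was handled as a score, since repeated lines take its column sums past 1000000, the sum over unique gene names. Each table had 62710 lines. Of these, 2328 shared 453 names with identical values and were collapsed to 1 line a name, and every row named a gene.

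Counts were tested with edgeR 4.0.16 in R 4.3.3 (filterByExpr at its defaults, TMM, glmQLFit and glmQLFTest, two-sided), adjusted by Benjamini-Hochberg over 16744 genes. CPM are TMM-scaled with SD over 3 libraries. The common biological coefficient of variation was 0.0743. A library pair had a chi-square per gene of at least 2.39, so none was treated as deposited again. The 14 alternative fits were RLE scaling, library size alone, no filter, a CPM minimum of 1 in 3 libraries, DESeq2 (version 1.42.0), limma-trend (limma 3.58.1) on log2(TPM + 1) and log2(TPM + 0.1), which understate changes of low genes, a replicate block, and leaving out each library. Named genes were those that passed (17 of 18 members), the most abundant of each family, further members and neighbouring genes picked after their values were seen, and up to 4 of smallest p, plus any that passed, in each list of other machinery. The members and lists were chosen with earlier results of these data known. A few genes that entered the tests and counts are not reported here singly. Roles are textbook knowledge.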

Additional observations from a re-analysis of the deposited data

How the results depend on the processing

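None of the 17 genes that changed and are described reversed in the 14 alternative fits. The number that rose was 12, and 8 to 11 with 1 library left out. The number that fell was 6, and 5 to 6 with 1 library left out (11.9% to 14.3%, against 11.8% to 17.1% of all genes). With limma-trend 4 rose on log2(TPM + 1) (9.52%, against 10.8% of all genes) and 6 on log2(TPM + 0.1) (14.3%, against 10.7%). Of the other machinery 5 rose and 8 fell, and 4 to 7 rose and 6 to 9 fell with 1 library left out. These leave-one-out shares of the other machinery were 8.51% to 14.9% and 12.8% to 19.1%. Its replicate-block count was 9 that rose (19.1%, against 17.7% of all genes). Over all genes 2617 rose and 2720 fell, 1903 to 2939 and 2034 to 2951 with 1 library left out, and at a threshold of 0.01 there were 1739 and 1764. The log2 fold change of DNM1 ran from -0.20 to -0.037 with 1 library left out. As deviations from the group means, same-numbered libraries correlated at 0.10, 0.06 and -0.03, and differently numbered ones at -0.098 to 0.033. These small values do not settle whether the numbers mark shared replicates. Under the replicate block 12 of the 42 rose (28.6%) and 8 fell (19.0%), and DNM1 was at -0.16 (adjusted p = 0.0629). Over all genes that fit had 2964 that rose (17.7%) and 3116 that fell (18.6%).

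Log2 fold changes near 0 of genes that did not pass changed sign. By library size alone STX5 was at -0.015, STXBP2 at -0.021, STXBP3 at -0.014, STX16 at -0.011 and STXBP5 at -0.0061. On log2(TPM + 1) STX18 was at -0.0068, STX5 at -0.032, STXBP2 at -0.028, STXBP3 at -0.041, SNAP47 at -0.013, STX16 at -0.034 and STXBP5 at -0.028. On log2(TPM + 0.1) STX18 was at -0.0070, STX5 at -0.032, STXBP2 at -0.033, STXBP3 at -0.042, SNAP47 at -0.013, SYT2 at -0.014, STX16 at -0.034 and STXBP5 at -0.030. With 1 library left out STX18 ran from -0.012 to 0.12, STX5 from -0.072 to 0.12, STXBP2 from -0.090 to 0.15, STXBP3 from -0.11 to 0.13, SNAP47 from -0.021 to 0.14, VAMP4 from -0.065 to 0.23, SYT2 from -0.14 to 0.42, STXBP4 from -0.15 to 0.071, STXBP5 from -0.068 to 0.095 and SYTL3 from -0.018 to 0.32. The cause was not tested. Depth limits SYT2, SYT17, STXBP6 and SYTL2, whose intervals were the widest, and batch and vector cannot be told apart in any fit.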

Other observations

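The neighbourhoods of VAMP2 and VAMP5, like the others described, were picked after their values were seen. Around VAMP2, at 8159149-8163546 on chromosome 17, 10 genes within 100 kb were tested. Of these, 2 were higher and 3 were lower, against 15.6% and 16.2% of all genes tested. PER1, a circadian clock gene that lies 2643 bases from VAMP2, was higher, with 51.2, 46.6 and 49.8 CPM in shDNM1, against 34.6, 39.6 and 36.9 CPM in shControl (1.33-fold, adjusted p = 0.000785 by edgeR). TMEM107, a gene of the ciliary transition zone that lies 8911 bases away, was lower at 75.6% of the shControl level (adjusted p = 0.0174). Around VAMP5, 8 neighbours were tested, of which 1 was higher and 1 was lower, against 15.6% and 16.2% of all genes tested. PARTICL was higher (1.54-fold, adjusted p = 0.0409), GGCX, the vitamin K-dependent carboxylase, was lower (84.1%, adjusted p = 0.0384) and 6 did not pass.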
